A study of Mus musculus with 16 samples.

Results

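The comparison described here is RNA polymerase II (Pol II) on chromatin of mouse embryonic fibroblasts (MEFs) with and without ATXN7L3. It takes every Pol II peak on the 19 autosomes from 1 wild-type (WT) and 1 knockout (KO) library, 44890 peaks in WT and 31552 in KO, out of 245651 peaks on all chromosomes in the 8 peak lists of the series. WT cells were Atxn7l3+/+ and KO cells Atxn7l3-/-, both on a mixed DBA/2 x C57BL/6 background. The cultures were derived from embryos at E10.5 after the head and the gastrointestinal tract had been removed, received no treatment, and were grown in serum. Chromatin was precipitated with an antibody to the C-terminal domain of RPB1, the largest Pol II subunit, and sequenced (ChIP-seq). Each group holds 1 library, so no difference has a replicate check, no p-value is given, and intervals cover counting error within a list only. Read depth behind the lists is unknown, and a peak list shows where signal passed a caller's threshold, not how much polymerase a gene carried. How far the KO cultures hold other kinds of cells than the WT cultures cannot be read from the labels, and in such bulk cultures fewer cells of a type and less Pol II per cell cannot be told apart.

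ATXN7L3 is an adaptor of the deubiquitylation module of the SAGA co-activator, in which the protease USP22 removes ubiquitin from histone H2B. Pol II is recruited to promoters, pauses shortly after initiation and is then released into the gene body, and at strongly transcribed genes it can be detected along the whole transcription unit and past its end. A promoter peak may therefore hold recruited, paused or elongating polymerase, and peaks over a gene body mark polymerase past the promoter. Fibroblasts and their mesenchymal precursors are known for genes of the extracellular matrix and of the actin cytoskeleton. Mesothelial cells, which line the body cavities and the organs in them, are known for uroplakins, mesothelin, keratins and the factor WT1.

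Promoters were taken as 1000 bp up- and downstream of each transcription start site (TSS), for 20807 protein-coding genes. The value of a promoter is the fold over background of the strongest peak touching it. The targeted gene itself gave no check of the genotype. Atxn7l3 (chr11:102289300-102296631, minus strand, mm10) had a promoter fold of 20.9 in WT and 23.4 in KO, and 54.7% and 51.7% of its body lay inside peaks. The construct used for the knockout carries recombination sites around exons 2 to 12. This interval of 3162 bp held 610 bp of peak in WT and 344 bp in KO, and its state in the KO genome cannot be read from peaks. Of the genes the study displayed, Zpr1, Bud13 and Cmip had promoter peaks in both libraries. Their fold was 12.3 in WT and 10.52 in KO at Zpr1, 22.3 and 17.7 at Bud13, and 12.4 and 13.4 at Cmip.

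To show what lies upstream of promoters that differed most, the 200 bases before the start of 3 genes with a peak in WT alone and of 3 with a peak in KO alone are given 5′ to 3′ (RefSeq, GRCm38.p6). They are the strongest of each class, among those that lack peaks of the second library in the surrounding 5000 bp, for which the RefSeq table holds a start within 100 bp of the one used here. Mgp, Unc5c and Upk1b are described by their values alone. Capitals mark matches on either strand to any of 8 short motifs. The TATA box was searched as TATAAA, the CCAAT box by the letters of its name and the GC box as GGGCGG. The AP-1 site was searched as TGANTCA, the TEAD site as GGAATG and the core of ETS sites as CCGGAAG. The E-box was searched as CACGTG and the GATA site as AGATAAG. None of these motifs contains another. With a peak in WT alone are Postn (chr3:54360907-54361106, plus strand), which encodes the matrix protein periostin, Aspn (chr13:49544243-49544442, plus strand), which encodes the proteoglycan asporin, and Ackr3 (chr1:90203780-90203979, plus strand), a scavenging receptor for chemokines.
Postn: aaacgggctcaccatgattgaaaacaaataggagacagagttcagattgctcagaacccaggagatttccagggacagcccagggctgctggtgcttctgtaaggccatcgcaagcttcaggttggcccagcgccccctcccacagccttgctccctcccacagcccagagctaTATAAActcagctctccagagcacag
Aspn: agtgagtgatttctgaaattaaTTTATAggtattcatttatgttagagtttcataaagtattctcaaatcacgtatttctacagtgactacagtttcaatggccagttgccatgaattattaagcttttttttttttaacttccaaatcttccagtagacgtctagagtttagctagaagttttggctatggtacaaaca
Ackr3: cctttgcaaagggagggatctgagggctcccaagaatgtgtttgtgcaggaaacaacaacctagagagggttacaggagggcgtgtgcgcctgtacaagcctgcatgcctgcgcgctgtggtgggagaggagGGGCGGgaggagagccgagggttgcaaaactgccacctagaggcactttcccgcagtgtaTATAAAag
With a peak in KO alone are Bnc1 (chr7:81992300-81992499, minus strand), which encodes the zinc finger protein basonuclin, Tcf21 (chr10:22820175-22820374, minus strand), a basic helix-loop-helix factor of visceral mesoderm, and Upk3b (chr5:136038296-136038495, plus strand), a uroplakin.
Bnc1: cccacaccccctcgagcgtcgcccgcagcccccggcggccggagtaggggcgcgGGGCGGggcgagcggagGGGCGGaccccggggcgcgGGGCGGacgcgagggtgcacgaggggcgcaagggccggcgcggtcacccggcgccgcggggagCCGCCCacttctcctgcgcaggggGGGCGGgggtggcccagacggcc
Tcf21: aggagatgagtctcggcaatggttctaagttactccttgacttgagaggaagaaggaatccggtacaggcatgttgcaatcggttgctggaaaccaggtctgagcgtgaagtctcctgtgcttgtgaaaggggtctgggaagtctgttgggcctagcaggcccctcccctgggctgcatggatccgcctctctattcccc
Upk3b: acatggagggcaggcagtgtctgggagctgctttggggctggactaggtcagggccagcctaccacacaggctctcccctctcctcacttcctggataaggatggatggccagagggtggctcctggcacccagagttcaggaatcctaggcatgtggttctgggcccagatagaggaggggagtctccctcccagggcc
Postn has a TATA box starting at -26 from the RefSeq start and Ackr3 one at -8, and the match of Aspn lies at -178 on the other strand. Bnc1 has 5 GC boxes and a GC content of 84.5%, and 179 of its bases lie in an exon of a divergent pseudogene, 4833418N17Rik. Tcf21 and Upk3b hold none of the 8 motifs in these bases. The sequences differ widely in composition within each class, from 31.0% GC at Aspn to 57.0% at Ackr3 among those with a peak in WT alone.

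Most promoters kept their peak. Of the 20807 promoters 10576 had a peak in both libraries, 921 in WT only, 314 in KO only and 8996 in neither. WT-only promoters made up 8.01% of the 11497 with a WT peak, and KO-only promoters 2.88% of the 10890 with a KO peak. These 2 shares are the background against which gene families are read below. Where the summit had to lie in the promoter, a rule chosen after seeing the data, the KO-only share was 4.37%. The background depends on peak strength, since 560 of 1091 promoters with a WT fold below 5 were WT only (51.3%), and 361 of 10406 with a fold of 5 or more (3.47%), a division chosen after seeing the data. Of the WT-only promoters 778 had no KO peak within 5000 bp of the TSS, and of the KO-only promoters 240 had no WT peak within that distance. Where the WT list was reduced to the 31552 peaks with the highest -log10 p, the number of the KO list, 785 promoters were WT only (6.94%) and 364 KO only (3.34%). The direction of the imbalance was the same with equal numbers of peaks.

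**Figure D1:**
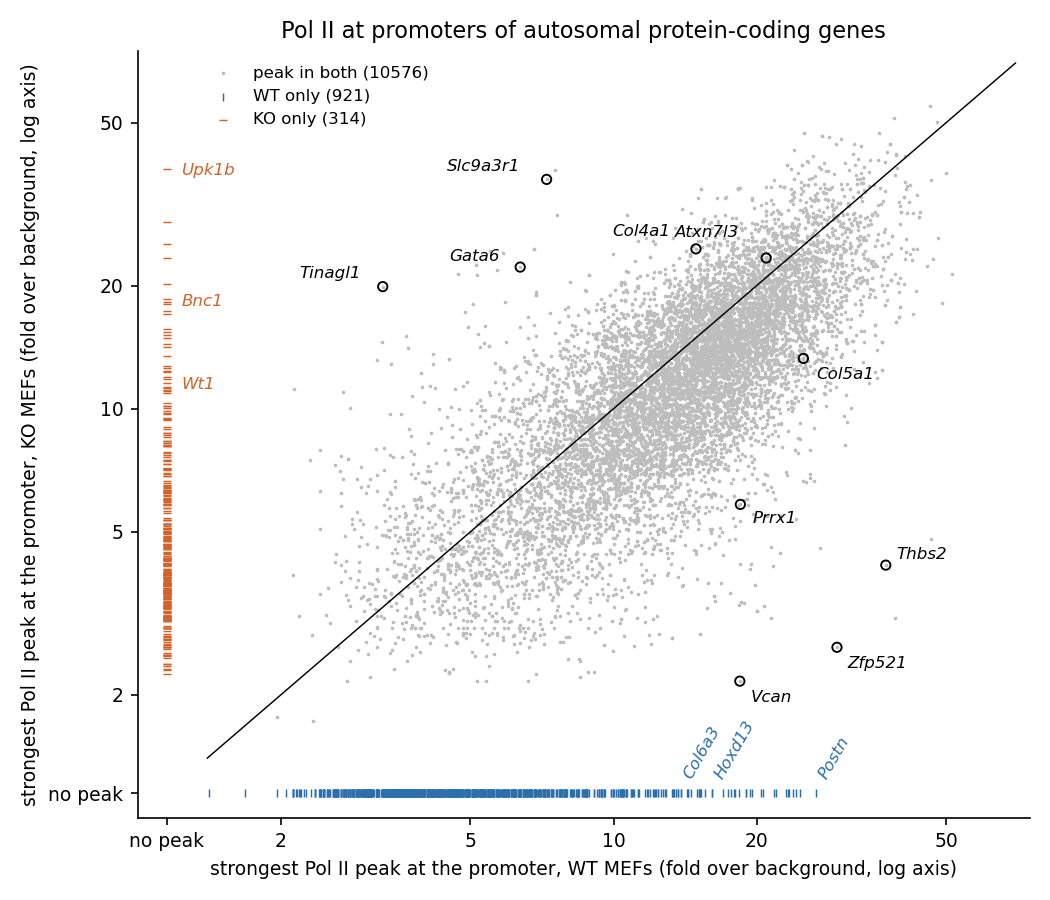
Fold over background of the strongest Pol II peak at each promoter in WT (horizontal) and KO MEFs (vertical), both log axes, with 1 library each. Grey points are the 10576 promoters with a peak in both, ticks at "no peak" are the 921 WT-only and 314 KO-only promoters, the line marks equal fold, and circles mark named genes. Thbs2, Vcan and Zfp521 lie far below the line, Tinagl1, Gata6 and Slc9a3r1 far above it.

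Genes were named by strength only where the second library had nothing called in the 5000 bp around the TSS. That condition leaves out 10 WT-only and 7 KO-only promoters with a fold above that of the last gene named. The strongest of the WT-only ones was Furin (24.7), whose summit lay 2374 bp past the TSS with a KO peak 1192 bp from it. Of the KO-only ones 4 had a fold over 20, Fth1 (28.7), Crb2 (25.2), Tmem151a (23.4) and Gpsm3 (20.2). The KO summit of Fth1 lay 2190 bp past the TSS, but at Crb2, a gene of epithelial polarity, it lay 79 bp past the TSS with the nearest WT peak at 4182 bp, and 1.37% of the body was inside WT peaks and 66.9% inside KO peaks. The strongest promoters with a peak in WT alone, chosen by that condition, included genes of secreted matrix proteins, receptors and transcriptional regulators beside genes of other function. Postn led with a fold of 26.6, and its nearest KO peak lay 331207 bp from the TSS. Mgp, which encodes matrix Gla protein, an inhibitor of calcification, had 23.4, and Aspn had 23.2. All 3 are secreted matrix genes, and the KO peaks nearest to the other 2 lay 46122 bp from Mgp and 63305 bp from Aspn. The WT summit at Aspn lay 1352 bp past the TSS. Igfbp5, an insulin-like growth factor binding protein, had a fold of 20.4, Ackr3 had 21.8, and Unc5c, a netrin receptor, had 21.98. The transcriptional regulator genes Ebf1 and Eya4 stood at 19.3 and 18.4. The other members of the top 12 were Ass1 (19.0), an enzyme of arginine synthesis, Bfsp1 (18.0), a lens filament gene, Mab21l1 (17.0) and Lrrc17 (16.1). For 11 of these 12 genes the gene body also held WT peaks and no KO peak, and Bfsp1 had body peaks in neither library. The WT peaks covered 84.1% of the body of Postn, 97.9% of Igfbp5 and 100% of Mgp, against 0.90% of the long gene Unc5c.

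Collagen genes mostly had weaker peaks, or none, in KO. Of 42 autosomal collagen genes 25 had a WT promoter peak, and 10 of these had none in KO (40%, with 8.01% as the background), while none was KO only. With a WT fold of 5 or more 7 of 21 were WT only (33.3%, background 3.47%). The WT-only members by fold were Col6a3 (13.9), Col11a1 (10.9), Col5a3 (9.86), Col6a1 (7.93), Col7a1 (5.60) and Col14a1 (5.08), followed by Col18a1 (5.03), Col8a2 (4.82), Col2a1 (3.67) and Col24a1 (2.46). They include chains of the fibrillar collagens and of the beaded collagen VI. Col7a1 had a KO peak 2012 bp from its TSS, and the WT summit of Col11a1 lay 1252 bp past its TSS. The 15 collagen promoters with a peak in both had a median KO to WT ratio of -0.92 on the log2 scale (exact binomial interval -1.33 to -0.07), and the interval includes the -0.22 over all 10576 such promoters. At Col3a1 the fold was 49.2 in WT and 18.1 in KO, at Col1a2 43.3 and 19.4, and at Col1a1 38.3 and 23.9. These are the main fibrillar collagens of connective tissue, and all 3 were lower in KO. Col4a1 and Col4a2, the basement membrane chains that share a divergent promoter and hence 1 peak, went the other way, from 14.9 to 24.6.

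Other matrix genes differed in the same direction. Of the 57 on autosomes 45 had a WT promoter peak, 13 of these none in KO (28.9%), and none was KO only. With a WT fold of 5 or more 9 of 40 were WT only (22.5%). After Postn and Aspn the WT-only members by fold were Omd (15.5), a proteoglycan gene next to Aspn, Mfap4 (15.1), Eln (12.6), which encodes elastin, and Tgfbi (9.55). Mfap4 had a KO peak within 5000 bp of its TSS and 55.1% of its body inside KO peaks, so the gene was not without Pol II in KO. The 32 with a peak in both had a median log2 ratio of -0.92 (interval -1.12 to -0.34), and 13 were lower in KO by 2 times or more (background 7.27%). Thbs2, which encodes thrombospondin 2, was at 37.4 in WT and 4.15 in KO, and Vcan, the proteoglycan versican, at 18.4 and 2.16. Loxl1 and Dcn were the members with a higher fold in KO, 30.03 against 25.5 and 13.5 against 8.66.

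The lists of cell adhesion held weaker peaks, with a median WT fold of 3.90 at protocadherin, 9.22 at cadherin and catenin and 9.44 at integrin promoters with a WT peak, and 13.3 over all such promoters. Of 18 protocadherin promoters with a WT peak 11 had none in KO (61.1%, interval 35.7% to 82.7%), but 12 of the 18 had a fold below 5, 10 of them WT only, where 51.3% of all promoters were WT only, and 1 of the 6 with a higher fold was WT only. They included 6 neighbouring genes of the gamma cluster, Pcdhga3, Pcdhgb1, Pcdhgb2, Pcdhga5, Pcdhga6 and Pcdhga7, with folds from 2.41 to 4.78, which are weak peaks. With equal numbers of peaks 7 protocadherin promoters were WT only. Of 13 cadherin and catenin promoters 5 were WT only (38.5%, interval 13.9% to 68.4%), led by Cdh10 (9.22) and Cdh13 (5.95), and these were 2 of the 9 with a fold of 5 or more. Of 21 contractile genes with a WT peak 4 were WT only, Cnn1 (9.98), Synpo2 (7.87), Actg2 (6.36) and Myh11 (2.41). Their share, 19.0%, has an interval from 5.45% to 41.9% that includes the background of 8.01%. Among those with a peak in both, the myosin light chain gene Myl9 was at 21.6 in WT and 4.13 in KO and the smooth muscle actin gene Acta2 at 31.6 and 10.0. The actin gene Actb of all cells was at 27.3 and 38.5. Integrin genes differed among themselves, with 6 WT only (37.5%, interval 15.2% to 64.6%), 3 KO only and 10 in both, and 4 of 12 were WT only from a WT fold of 5. Itga9 (9.56) and Itga11 (9.33), receptors for matrix, had a peak in WT alone, whereas Itga3, a receptor for laminin, was at 5.16 in WT and 21.3 in KO.

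Hox genes, the homeobox genes that set position along the body and limb axes, held 11 WT-only promoters among 30 with a WT peak (36.7%) and 1 KO-only promoter. From a WT fold of 5 they were 7 of 22 (31.8%). The 11 were Hoxd13 (16.1), Hoxa11 (15.0), Hoxa10 (13.3), Hoxa9 (12.2), Hoxa13 (8.42), Hoxd11 (7.92), Hoxd12 (6.59), Hoxd10 (4.90), Hoxc9 (3.73), Hoxa6 (3.63) and Hoxc4 (2.85). They lay mostly at the posterior ends of the A and D clusters, where Hoxa9, Hoxa10, Hoxa11 and Hoxa13, and Hoxd10 to Hoxd13, formed unbroken runs of 4 WT-only promoters each. The bodies of Hoxa10, Hoxa11 and Hoxa13 lay to 91.3%, 74.0% and 62.0% inside WT peaks and held no KO peak. Split by number after the values had been seen, 9 of the 16 genes numbered 9 to 13 were WT only and 2 had a peak in both, whereas 2 of the 23 numbered 1 to 8 were WT only and 17 had a peak in both. Of the 19 Hox promoters with a peak in both 8 had a higher fold in KO, in all 4 clusters, from Hoxc6 (10.8 in each) to Hoxb4 (8.44 in WT and 17.0 in KO), and Hoxc13 had a peak in KO alone (5.72). Hoxa6, Hoxa9 and Hoxc4 had a KO peak within 5000 bp, and the WT peaks at Hoxa9, Hoxd11 and Hoxd12 had their summits outside the promoter window. Of other patterning families, 3 of 9 Sox promoters with a WT peak were WT only, led by Sox11 (14.4), 3 of 20 Fox promoters, among them Foxd1 (11.3), and 2 of 6 T-box promoters, Tbx5 (7.55) and Tbx15 (5.46). The intervals of the Sox (7.49% to 70.1%), Fox (3.21% to 37.9%) and T-box shares (4.33% to 77.7%) include the background, and Foxo6 (11.95) and Tbx20 (8.09) were KO only.

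Signalling lists held more WT-only than KO-only promoters, but the intervals of several shares include the background of 8.01%. Of 28 TGF-beta and BMP ligand and receptor genes with a WT peak 8 were WT only (28.6%, interval 13.2% to 48.7%), led by the receptor gene Bmpr1b (9.31), and 2 were KO only, Gdf6 (15.7) and Bmp6 (4.60). Of 42 chemokine and interleukin genes 13 were WT only (31.0%, interval 17.6% to 47.1%), led by Cxcl5 (9.89), and none KO only. Of 23 semaphorin, plexin and neuropilin genes 7 were WT only (30.4%, interval 13.2% to 52.9%), led by Sema6a (13.9), but the 16 in both had a median log2 ratio of 0.19 (exact binomial interval -0.56 to 0.82). Within this list Nrp1 was at 15.0 in WT and 5.64 in KO and Sema3d at 4.94 and 15.8. Of 21 interferon-response genes 4 were WT only, Gbp3 (10.51), Ifit3 (5.31), Rtp4 (4.31) and Mx1 (4.07). All 17 in both had a lower fold in KO (67.5% over all promoters in both), with a median log2 ratio of -0.81 (interval -1.19 to -0.45). The WT-only share of this list, 19.0%, has an interval from 5.45% to 41.9%. Irf7, a regulator of type I interferon genes, was at 21.4 in WT and 6.44 in KO. The intervals also include the background for Wnt ligands and receptors (21.1%, 6.05% to 45.6%), ephrins and Eph receptors (18.8%, 4.05% to 45.6%), the Igf system (16.7%, 2.09% to 48.4%) and Notch genes (30%, 6.67% to 65.2%). They lie above it for Fgf genes (4 of 10 WT only, 12.2% to 73.8%, 1 KO only). The same holds for Slit, Robo, netrin and Unc5 genes (3 of 7, 9.90% to 81.6%). From a WT fold of 5 these 2 lists had 1 of 6 and 3 of 7 WT only. From a WT fold of 5, where the background was 3.47%, 4 of 24 TGF-beta and BMP, 4 of 27 chemokine and interleukin, 2 of 14 semaphorin, 2 of 18 interferon-response, 2 of 17 Wnt and 2 of 11 Igf promoters were WT only, and none of 7 Notch and of 13 ephrin and Eph promoters.

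Promoters with a peak in KO alone, and no WT peak within 5000 bp, included genes known from mesothelium and visceral mesoderm. Upk1b (chr16:38773184-38800328, minus strand), a uroplakin, had a fold of 38.6 in KO, and its nearest WT peak lay 57548 bp from the TSS. Bnc1 followed with 18.5, Tcf21 with 18.2 and Upk3b with 18.1. None of the 4 genes had a WT peak in promoter or body, and KO peaks covered 86.7% of the body of Upk1b, 83.9% of Bnc1, 90.1% of Tcf21 and 96.4% of Upk3b. Gdf6, a ligand of the BMP family, had 15.7, and Rspo1, a secreted enhancer of Wnt signalling, had 12.7. The other members of the top 12 were Fam84a (17.4), 9330182L06Rik (15.1), Soga3 (14.4), Lrrn4 (14.2), Sh3tc2 (13.5) and Fam110c (12.6). Of the 12 genes 11 had body peaks in KO alone, and Lrrn4, at which WT peaks covered 6.24% of the body and KO peaks 94.1%, had them in both.

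Of 12 mesothelium markers 9 had a promoter peak in KO and none had one in WT. Their KO folds were 38.6 at Upk1b, 18.5 at Bnc1, 18.1 at Upk3b, 14.2 at Lrrn4, 11.6 at Wt1, 11.3 at Krt7, 10.2 at Msln, 6.23 at Muc16 and 3.32 at Gpm6a. Msln had a WT peak 2187 bp from its TSS, and the other 8 had none within 5000 bp. Krt8, Krt18 and Krt19, keratins of simple epithelia, had no promoter peak in either library. The summed fold of the list was 0 in WT and 132.0 in KO. With equal numbers of peaks all 9 were KO only, and 7 were where the summit had to lie in the promoter. Over all promoters with a KO peak 2.88% were KO only. The list was chosen with earlier results of these data known, and Upk1b, Bnc1, Upk3b and Lrrn4 were already named above by KO fold. The count and the summed fold are therefore a description and no test. Of the Gata, Hand and Nkx genes 4 had a promoter peak in each library and 1 in WT alone, while 2 were KO only, Gata4 (4.06) and Gata5 (2.46), and 1 remained KO only with a -log10 q of at least 3. Gata6 had a promoter peak in both, at 6.37 in WT and 22.2 in KO.

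Markers of other cell types were counted in the same way. The 16 fibroblast and mesenchyme markers had a peak at 15 promoters in WT and 14 in KO, with a summed fold of 364 in WT and 188 in KO. Fibroblast markers were thus found in both libraries, whereas the KO library also held the mesothelium markers above, which the label MEF does not cover. The single fibroblast marker lost in KO was Postn, while Dpt had a peak in neither. Of the 15 with a WT peak, Prrx1, a limb mesenchyme factor, was at 18.5 and 5.84 and Pdgfrb, the platelet-derived growth factor receptor of mesenchyme, at 21.9 and 8.80, whereas Twist1 was at 26.8 and 20.3, Pdgfra at 12.7 and 10.8 and S100a4 at 11.7 and 12.2. Smooth muscle markers had peaks at 6 of 6 promoters in WT and 3 of 6 in KO, with summed folds of 83.9 and 25.9. Blood and macrophage markers had peaks at 5 of 10 promoters in WT and 9 of 10 in KO, with summed folds of 37.1 and 64.9. The members in KO alone were Adgre1 (5.40), Cx3cr1 (4.18), Itgam (4.17) and Csf1r (3.53), and Ptprc had no peak in either library. The neighbouring Cd300a, Cd300lb, Cd300c2 and Cd300lf, receptors of myeloid cells, formed an unbroken run of 4 KO-only promoters with folds from 3.68 to 4.58.

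The remaining marker lists had few or no peaks. Epithelium had 0 of 13 in WT and 1 of 13 in KO, with Cdh1 and Epcam at none in both, and endothelium had 3 and 1 of 10, with Cdh5 and Tek at none. Erythroid markers had 2 and 1 of 6, neural markers 4 and 2 of 9, and neural crest and glia markers 1 and 1 of 6. Cardiac muscle had 0 and 1 of 7, skeletal muscle 1 and 1 of 7, visceral and yolk sac endoderm 1 and 2 of 10, and pluripotency 1 and 2 of 8. Globin genes, Pou5f1, Nanog, Sox2, Myod1 and Afp had no promoter peak in either library. The summed folds of these 9 lists lay between 0 and 26.8 in WT and between 3.61 and 32.9 in KO. The part that a different mix of cells has in the lost and gained peaks was not tested.

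**Figure D2:**
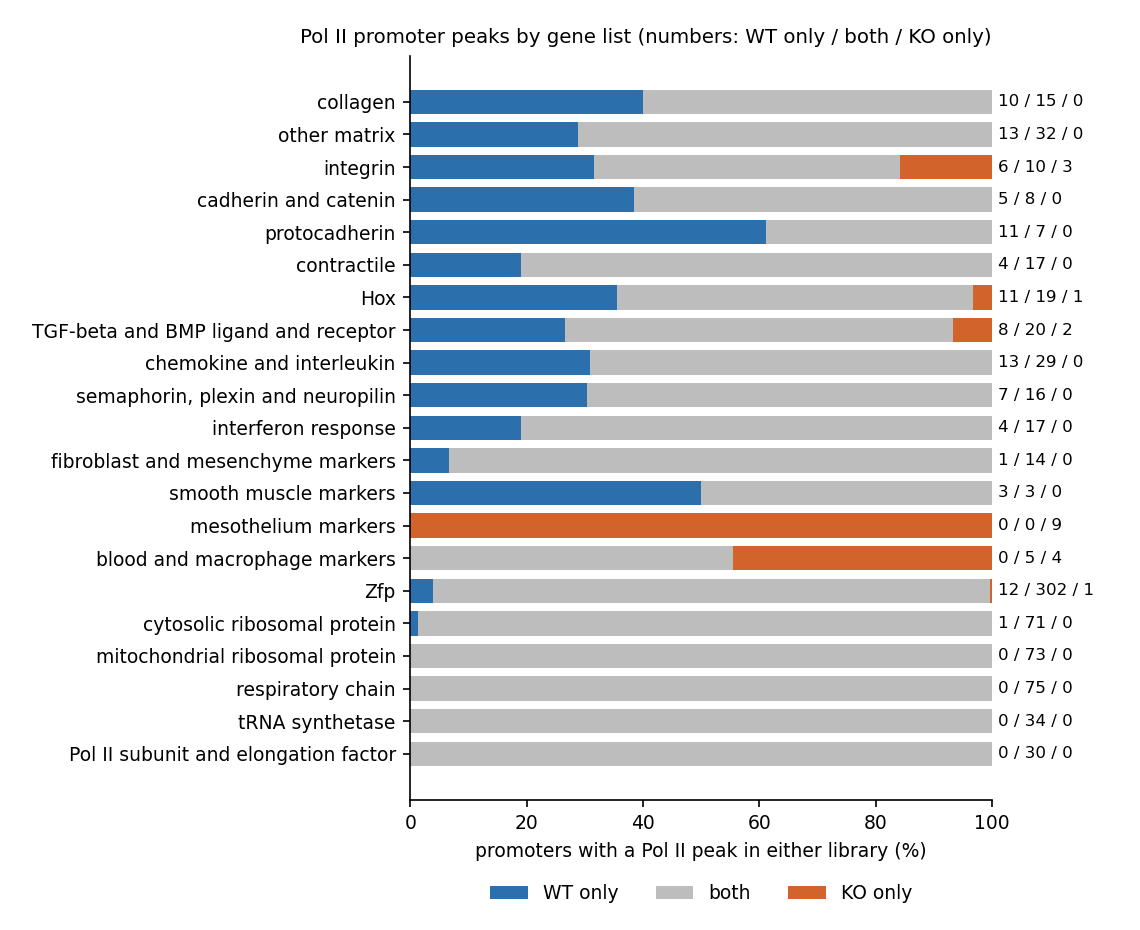
Share of promoters with a Pol II peak in WT only, in both and in KO only, among promoters of each gene list with a peak in either library, with the numbers at the right. Mesothelium markers are all KO only, and tRNA synthetase, respiratory chain and Pol II lists are all in both. WT-only promoters are 28.9% (other matrix) to 61.1% (protocadherin) of those with a WT peak in the matrix and adhesion lists drawn, and 8.01% over all genes.

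Genes that every cell uses had their promoter peaks in both libraries with few exceptions, but so did most promoters with strong peaks. From a WT fold of 5, which nearly all WT peaks of these lists reached, 3.47% of all promoters were WT only. The intervals of the WT-only shares of the lists given next include that background. None of the 34 tRNA synthetase genes, of the 30 genes of Pol II subunits and elongation factors, of the 75 respiratory chain genes with a WT peak and of the 73 mitochondrial ribosomal protein genes with a WT peak was WT only. Of 72 cytosolic ribosomal protein genes with a WT peak 1 was WT only, Rps10, and its WT peak of 23.1 had the summit 1483 bp from the TSS with a KO peak within 5000 bp. The Zfp list of zinc finger genes had 302 promoters in both, 1 KO only and 12 WT only, the last being 3.82% of those with a WT peak. From a WT fold of 5 its share was 2.03%. Immediate early genes, which answer to serum, had 23 in both and 1 WT only, with a median log2 ratio of -0.07. Egr1 was at 19.5 in WT and 28.4 in KO and Ier2 at 33.4 and 13. The median log2 ratio, -0.22 over all promoters in both, was -0.27 for cytosolic ribosomal proteins, -0.39 for the respiratory chain and -0.45 for tRNA synthetases. Of the autosomal genes of the H2B deubiquitylase module all 6 kept a peak, with Usp22 at 8.75 in WT and 5.76 in KO. The olfactory receptors, which should be silent here, had peaks at 4 of 1128 promoters in each library.

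Promoters with a peak in both differed by a modest shift with long tails. Their median fold was 14 (WT) and 11.8 (KO). The median log2 ratio was -0.22 (exact binomial interval -0.24 to -0.21), with the middle 80% from -0.90 to 0.42. The KO fold was the lower one at 67.5% of these promoters. It was lower by 2 times or more at 769 promoters (7.27%) and higher by 2 times or more at 135 (1.28%). Because each fold is relative to the background of its own library, the shift of the median is no absolute change. The highest ratios were at Tinagl1 (2.60 on the log2 scale, 3.27 in WT and 19.9 in KO), a matrix protein gene of basement membranes, Ptgs1 (2.39), which encodes cyclooxygenase 1, Mdc1 (2.35), Slc9a3r1 (2.33), a scaffold of ezrin, F11r (2.18), a tight junction adhesion gene, and Myrf (2.16). The lowest were at Hist1h1t (-3.67), Zfp521 (-3.50), Lag3 (-3.27), Thbs2 (-3.17), Vcan (-3.09) and Tgfbr3l (-2.80). The strongest WT peak touching the promoter had its summit 2601 bp downstream of the TSS at Hist1h1t, at -6192 bp from it at Lag3 and 4918 bp downstream at Tgfbr3l, and the KO summit at Mdc1 lay at -3326 bp, so these 4 values come from peaks centred outside the promoter.

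Whether a promoter had a peak in 1 library alone went with the strength of that peak. Of the promoters with a WT fold of 3 to 5, 48.3% had no KO peak, and of those with a WT fold of 10 to 15 the share was 1.74%. Of 339 promoters with a WT fold of 30 or more none was WT only, which allows a share of up to 1.08% (exact Clopper-Pearson interval). The same decline held for KO peaks, from 15.9% at a KO fold of 3 to 5 to 0.639% at 10 to 15. Median folds were 4.39 at WT-only and 4.27 at KO-only promoters, so both classes consisted mostly of weak peaks. The strongest genes of each class lay far above, since 90% of WT-only promoters had a fold below 9.45 and 90% of KO-only promoters one below 10.1.

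**Figure D3:**
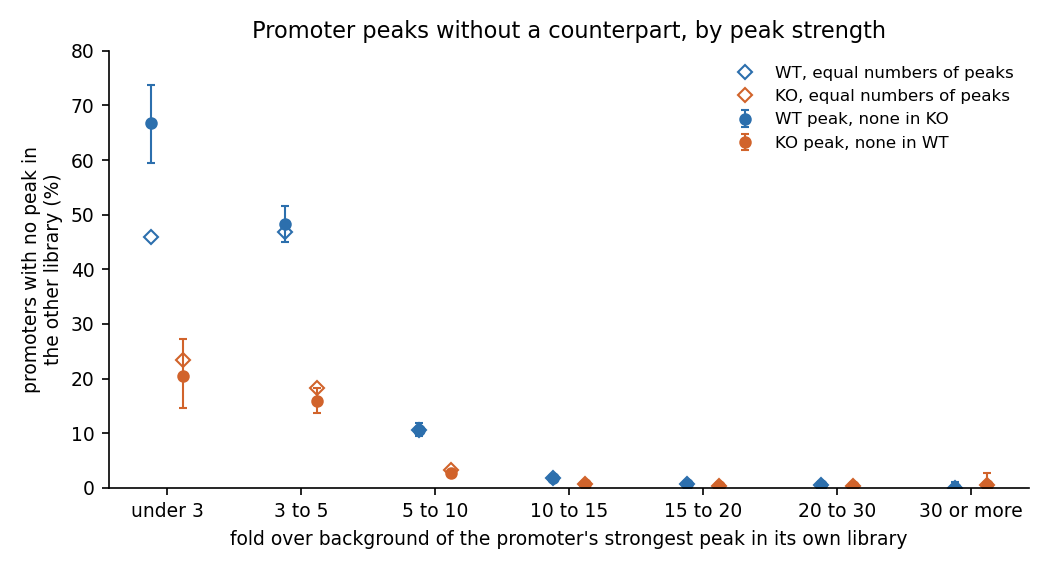
Percent of promoters with a peak in 1 library and none in the other (vertical axis) by the fold of that peak (horizontal axis). Filled circles use all peaks with exact 95% intervals, open diamonds equal numbers of peaks, blue WT and orange KO. The share falls from 48.3% at a WT fold of 3 to 5 to 1.74% at 10 to 15, and is higher for WT than for KO in each class of fold below 30.

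Gene bodies differed more than promoters, but their peaks were also weaker. The median fold of WT peaks was 3.53 with the summit in a gene body and 12.7 with the summit in a promoter. Because weak promoter peaks also often lacked a counterpart, the shares of bodies and promoters are not matched for peak strength. A body ran from 1000 bp past the TSS to the gene end in the 19408 genes longer than 2000 bp. Of these 6292 had body peaks in both libraries, 2315 in WT only (26.9% of those with a WT peak) and 628 in KO only (9.08% of those with a KO peak). Where 10% of the body had to lie inside peaks the shares were 43.0% and 13.6%. Once the WT list was reduced to the KO number, 1866 bodies were WT only (23.4%) and 819 KO only (11.8%). A promoter peak in both went with a body peak in WT alone at 1621 genes and in KO alone at 441 genes. Where both promoter and body had peaks in both libraries, at 5093 genes, peaks took up a median of 9.28% of the body in WT and 4.80% in KO. The KO share was the smaller one at 75.9% of these genes. With equal numbers of peaks it was the smaller one at 69.2%.

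The largest losses were ranked by covered bases, a measure that favours long genes. Several of the 8 genes are of matrix and mesenchyme, and 7 of the 8 had a promoter peak in both libraries. Over all genes the WT-only share of bodies was 24.3% in the shortest class of length and 30.4% in the longest. Col5a1 (chr2:27886425-28039514), a fibrillar collagen gene, had 97.2% of its body inside WT peaks and 1.53% inside KO peaks, while its promoter fold was 25.1 and 13.3. Fbn1 (chr2:125300594-125507993), which encodes fibrillin 1, went from 57.2% to 1.07% with a promoter fold of 39.2 and 16.3, both from peaks with the summit past the promoter window, at 1637 and 1660 bp. Both genes thus had a KO peak near the start and almost none behind it. The other 6 were Cdh11 (85.8% and 27.6%), a mesenchymal cadherin, Cald1 (92.9% and 44.3%), Lpp (15.9% and 1.72%), Hmga2 (75.7% and 4.78%), a chromatin protein of embryonic growth, Runx1 (35.8% and 1.69%) and Ptn (79.5% and 5.59%). Runx1 had no peak in either library at the TSS of its gene record. By a rule chosen after the values had been seen, 135 genes had at least 50% of the body inside WT peaks and at most 10% inside KO peaks, 13.2% of the 1022 with such WT coverage, and 102 of these had a promoter peak in both. With equal numbers of peaks they were 101 and 72. Those over 20 kb were 20 genes, among them Prrx1 (86.4% and 2.23%), Pdgfrb (69.5% and 7.81%), Col5a2 (61.9% and 8.52%), Tgfb3 (92.7% and 6.60%) and Postn.

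The largest gains of covered bases were at Col4a1 and Col4a2, which encode chains of basement membrane collagen, followed by 6 genes of varied function. Col4a1 (chr8:11198423-11312826) had 16.7% of its body inside WT peaks and 91.8% inside KO peaks, and Col4a2 (chr8:11312805-11449287), transcribed the other way from the same promoter, 9.85% and 64.8%. Cemip, which takes part in hyaluronan breakdown, went from 4.88% to 52.1%, and Ezr, which encodes the membrane linker ezrin, from 2.52% to 97.2%. Bicc1 (0.605% and 27.0%), Ypel2 (0% and 83.6%), Mical2 (17.3% and 41.6%) and Cnksr3 (1.12% and 49.1%) completed the 8. All 8 had a promoter peak in both libraries, with a higher fold in KO. By the mirrored rule 45 genes had at least 50% of the body inside KO peaks and at most 10% inside WT peaks, 7.88% of the 571 with such KO coverage, and 28 of them had a promoter peak in both. With equal numbers of peaks they were 49 and 32. Of these 45 the 15 over 20 kb include Nid2 (4.82% and 73.4%), a basement membrane linker, Gata6 (1.79% and 87.2%), Pdpn (5.60% and 58.0%), which encodes podoplanin, and Upk1b and Bnc1.

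**Figure D4:**
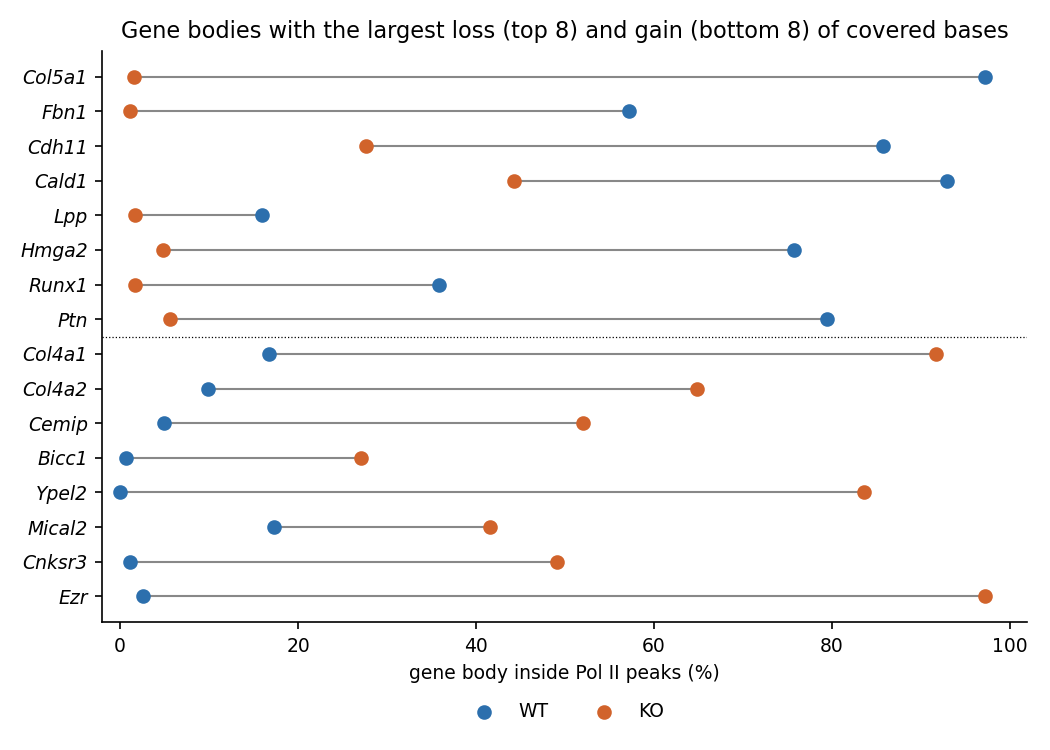
Percent of the gene body inside Pol II peaks (horizontal axis) in WT (blue) and KO (orange) for the 8 genes with the largest loss and the 8 with the largest gain of covered bases, 1 library each. Col5a1 runs from 97.2% in WT to 1.53% in KO, and Ezr from 2.52% to 97.2%.

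Along single genes the peaks show where the covered bases lay. At Postn 20 WT peaks ran from 2.94 kb before the TSS to 33.9 kb past it, beyond the gene end, and no KO peak lay in the region drawn. At Col5a1 21 WT peaks, the widest of 53.5 kb, faced 1 KO peak of 3.92 kb at the promoter, and at Fbn1 145 WT peaks faced 2 KO peaks. At Col4a1 38 WT peaks of up to 4.61 kb faced 47 KO peaks of up to 13.6 kb. At Gata6 the single WT peak was 1.32 kb wide and the widest of 16 KO peaks 10.7 kb. A number of peaks is no measure of signal here, since gaps as short as 51 bp split the covered stretches.

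**Figure D5:**
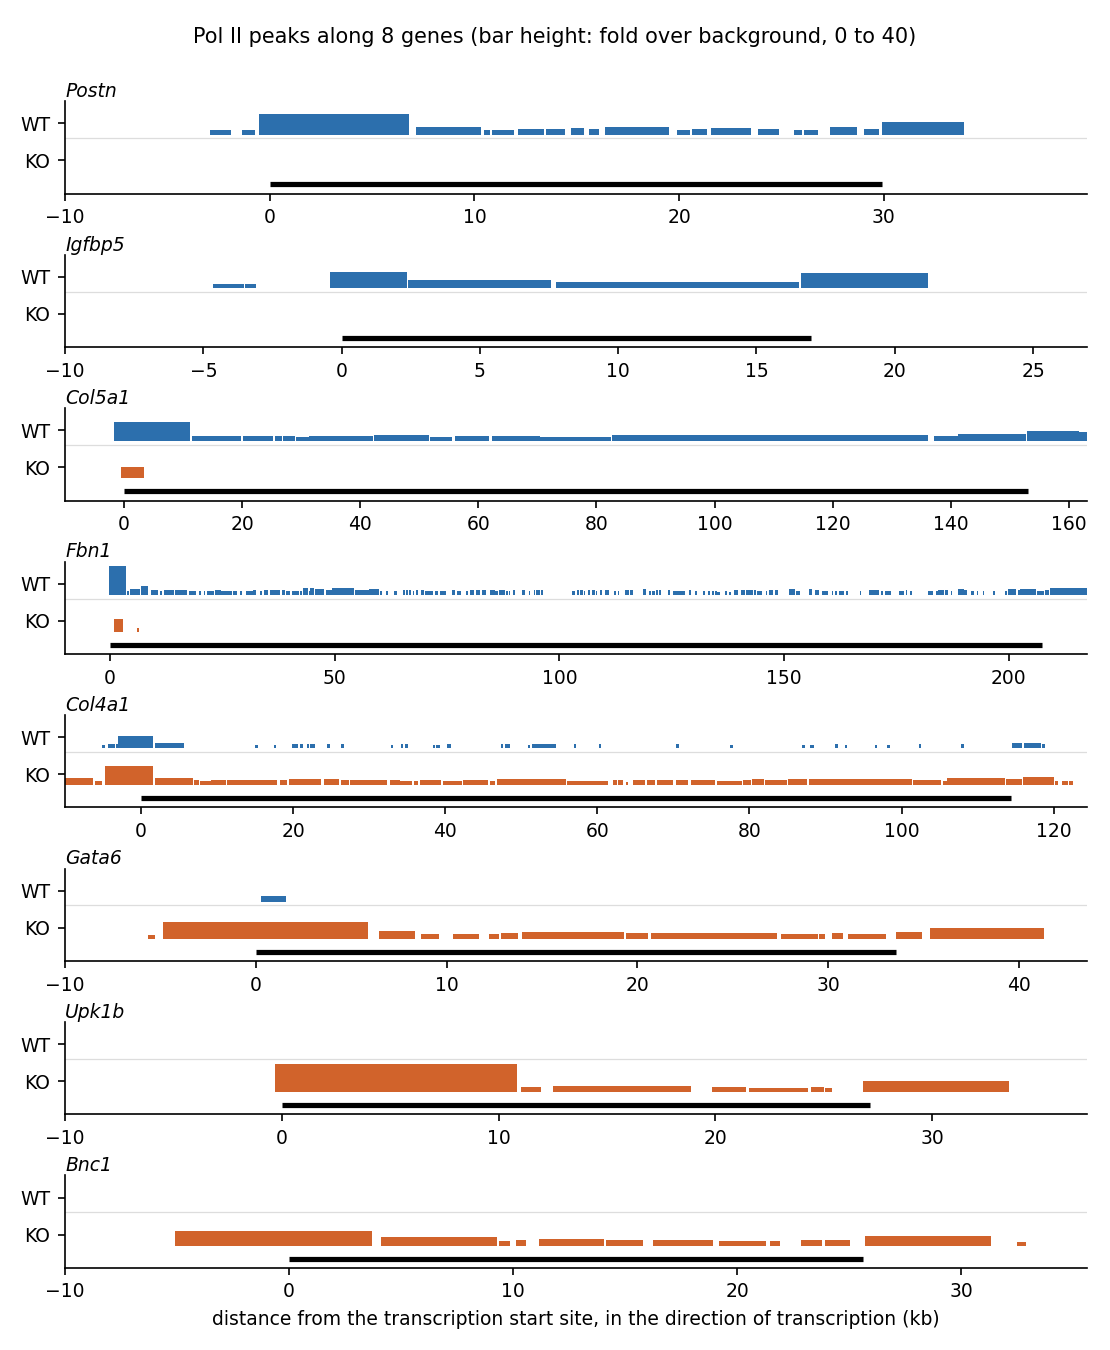
Pol II peaks of WT (blue) and KO (orange) along 8 genes, by distance from the TSS in kb. Each bar is 1 peak with its height set by its fold at the summit, and the black line is the gene. Peaks fill Postn, Igfbp5, Col5a1 and Fbn1 in WT and Col4a1, Gata6, Upk1b and Bnc1 in KO.

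Of the 9235 genes with a body peak in either library 76.8% had fewer covered bases in KO and 22.2% had more (67.5% and 26.7% with equal numbers), which is the background for lists of bodies. Among collagen genes 25 bodies had fewer covered bases in KO and 3 had more, and the sum over the list was 493 kb in WT and 262 kb in KO, of which Col4a1 and Col4a2 held 104074 and 87815 bp in KO. For other matrix genes the sums were 631 kb and 299 kb, with fewer bases in KO at 43 genes and more at 4. For contractile genes they were 533 kb and 269.6 kb, with fewer at 20 and more at none. Mesothelium markers went from 0.723 kb in WT to 94.5 kb in KO, with more at 9 and fewer at none. Over all autosomes peaks covered 50.4 Mb of the WT genome and 31.8 Mb of the KO genome, so that lower sums in KO are the rule, and the mean fold of a peak was 6.60 and 6.90.

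Read by peaks instead of genes, the lists differed most outside promoters, where peaks were also weaker. Of the WT peaks 45.2% overlapped a KO peak by at least 1 bp, 89.4% of those with the summit in a promoter and 31.1% of those in a gene body. Of the KO peaks 76.4% overlapped a WT peak, 96.0% in promoters and 63.0% in gene bodies. Promoters held 22.7% of WT and 31.2% of KO summits, and after the WT list had been reduced to the KO number it held 31.1%. Overlap depended on peak rank. Ranked by -log10 p and cut into 5 equal parts, in the top part 98.8% of WT peaks overlapped a KO peak and 99.4% of KO peaks a WT peak, and in the lowest part 14.4% and 55.2%. In the top part 105 WT peaks had no KO peak and 40 KO peaks no WT peak. With equal numbers of peaks these were 32 and 42, so the imbalance between the libraries did not hold in the top part. There 99.5% of WT and 99.3% of KO peaks then met a peak of the other list. In the lowest part of the equal lists 19.6% of WT and 47.1% of KO peaks did so, a smaller gap in the same direction.

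Other readouts of the same series were set beside the promoter classes. H2Bub1, the histone mark the missing module removes, was measured in MEFs of both genotypes. A gene was counted where an H2Bub1 peak lay anywhere between its start and its end, the first 1000 bp included. Where the promoter carried Pol II in both, it lay over 57.0% of genes in WT and over 94% in KO. At the 314 KO-only promoters the shares were 6.37% in WT and 72.0% in KO, and at the 921 WT-only promoters 11.9% and 23.6%. None of the 12 KO-only promoters named by strength belonged to a gene with an H2Bub1 peak in WT, and in KO such peaks covered from 9.91% of the gene at Soga3 to 100% at Bnc1, Tcf21, Upk3b, Lrrn4 and Fam110c, with 58.3% at Upk1b. Of the 12 WT-only promoters named by strength 9, Postn, Mgp, Aspn and Igfbp5 among them, had none in either, and Ackr3 (2.45%), Eya4 (0.826%) and Unc5c (0.163%) had some in WT and none in KO. In mouse embryonic stem cells the promoters in both also held a Pol II peak at 64.0% in WT and 59.5% in KO. WT-only promoters did so at 18.7% and 12.5%, and KO-only promoters at 16.2% and 13.7%. Promoters with no MEF peak did so at 3.84% and 2.45%. The stem cell lists are shorter, with 17074 peaks in WT and 11963 in KO on all chromosomes, against 45870 and 32232 in MEFs.

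Promoters with a peak in both and those with a peak in 1 library differed in sequence composition. A RefSeq window of 300 bp, 250 before the start to 50 after, was at hand for 11371 of the 20807 genes, which include 6511 of those in both, 466 WT-only and 155 KO-only promoters. The median ratio of observed to expected CpG was 0.80 at promoters in both, 0.56 at WT-only, 0.50 at KO-only and 0.23 at promoters with no peak. A TATA box, TATAAA on either strand, lay in 5.90% of windows in both, 11.2% of WT-only and 11.6% of KO-only windows, against 11.7% of all windows. The ETS core, CCGGAAG, lay in 21.9% of windows in both, 3.65% of WT-only and 5.16% of KO-only windows, against 14% of all. The GC box, GGGCGG, lay in 69.8%, 51.5% and 55.5%, against 51.5% of all. The TEAD site, GGAATG, lay in 10.98% of windows in both, 15.0% of WT-only (exact interval 11.9% to 18.6%) and 19.4% of KO-only windows (13.5% to 26.5%). The AP-1 site, TGANTCA, lay in 3.72%, 8.37% (6.02% to 11.3%) and 10.3% (6.02% to 16.2%). The CCAAT box lay in 40.8%, 37.6% (33.1% to 42.1%) and 30.3% (23.2% to 38.2%), the E-box, CACGTG, in 10.8%, 9.01% and 7.74%, and the GATA site, AGATAAG, in 1.44%, 3.00% and 4.52%. For TEAD, AP-1 and CCAAT the intervals of WT-only and KO-only windows overlap. Over all windows the TEAD site lay in 12.7%, the AP-1 site in 6.66%, the CCAAT box in 39.5%, the E-box in 8.62% and the GATA site in 2.52%. Windows of promoters with no peak in either library were near the WT-only and KO-only ones for some motifs. They held the TEAD site in 14.9%, the AP-1 site in 10.9%, the GATA site in 4.03% and the ETS core in 3.23%, but the TATA box in 20.8% and the GC box in 23.2%. Among KO-only windows with no WT peak within 5000 bp the GATA site lay in 2.44%. A match is a run of letters and no sign that a factor binds there.

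The differences were spread over the genome. WT-only promoters were found on each of the 19 autosomes, from 4.06% of those with a WT peak on chromosome 19 to 12.5% on chromosome 18. KO-only promoters ranged from 0.862% on chromosome 16 to 4.38% on chromosome 3, and the median log2 ratio at promoters in both from -0.28 to -0.18. Differing promoters seldom shared their window with another gene. The window held the TSS of a neighbour within 2000 bp at 24.5% of promoters in both, 5.65% of WT-only and 10.8% of KO-only promoters. Another annotated start of the same gene carried a KO peak at 110 of the 921 WT-only promoters, and a WT peak at 37 of the 314 KO-only promoters.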

How the data were processed

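Pol II ChIP-seq of 1 WT and 1 KO MEF library was analysed from the deposited peak lists. Per the labels and the study's methods, the authors sequenced 50 bp single-end reads, demultiplexed with bcl2fastq 2.17.1.14, aligned to mm10 with Bowtie 1.0.0 and called peaks with MACS2 2.1.1.20160309. The control and the calling thresholds are not given in the sources used here. The deposited values are a fold over background, a ratio at each summit, and the -log10 p and -log10 q of the peak, with the lowest -log10 q at 1.42 in WT and 1.33 in KO. Peak lists hold no read counts, so the depth of each library is unknown. The samples without a peak list, 8 of the 16, were not used here.

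Peaks on the 19 autosomes were joined to 20807 protein-coding genes of GENCODE M21. The promoter was 1000 bp on either side of the TSS, and gene bodies were taken in genes over 2000 bp, which leaves out 1399. Shares carry exact Clopper-Pearson 95% intervals for counting error, and medians exact binomial ones. The named genes are the 12 strongest promoters of each library with no peak of the other within 5000 bp, the 6 highest and 6 lowest ratios, the 8 largest losses and gains in gene bodies, up to 6 members of each list and the marker lists. Genes outside that rule were named after their values were seen. The members and lists were chosen with earlier results of these data known. The scripts, tested on simulated data, ran in Python 3.11.15 (scipy 1.17.1, pandas 2.3.3, numpy 2.4.6, matplotlib 3.10.9). Alternatives were equal numbers of peaks, a -log10 q of at least 3, other windows and TSS, isolated genes, other overlaps and the sex chromosomes. A rule on the summit was added after the data were seen. Part of the genes chosen by the naming rule is not reported here.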

Additional observations from a re-analysis of the deposited data

Results flagged for a closer look

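The peak lists also cover the sex chromosomes, which the comparison leaves out. On chromosome Y 4 promoters had a Pol II peak in the WT list and none in the KO list, Ddx3y at a fold of 10.8, Eif2s3y at 14.6, Kdm5d at 8.46 and Uty at 8.86. The labels give no sex of the embryos. Whether the WT and KO Pol II libraries differ in embryo sex was not tested, and with 1 library each such a difference and the genotype cannot be told apart in any comparison made here.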

How the results depend on the processing

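With 1 library per genotype no replicate could be left out. No paired analysis was possible because each group has 1 library. Of 56 alternative values for the 10 main shares and ratios 23 stayed within the exact interval of the main value. For the ratio of covered length, which has no interval, the value had to be equal after rounding. WT-only shares were above KO-only shares under each setting tried, but the difference in the promoter share of summits, 22.7% in WT and 31.2% in KO, was 31.1% and 31.2% with equal numbers of peaks. With equal numbers of peaks WT-only promoters made up 6.94%, KO-only promoters 3.34%, WT-only bodies 23.4% and KO-only bodies 11.8%, the ratio of covered length was 0.710, 57.8% of WT peaks met a KO peak, and 71.6% of KO peaks met a WT peak. Without a peak of the other genotype within 5000 bp the promoter shares were 6.85% and 2.22%. At genes 5000 bp or more from another gene they were 11.3% and 3.64%, the body shares 32.2% and 13.1%, and the median log2 ratio -0.24. Where 10% of a body had to lie inside peaks, the body shares were 43.0% and 13.6%. With a -log10 q of at least 3 the ratio of covered length was 0.629, the overlaps 45.9% and 77.0%, and the promoter share of summits 24.1% in WT and 33.0% in KO. With chromosomes X and Y the covered ratio was 0.629. With peaks less than 1000 bp apart joined it was 0.631 and the overlaps 55.9% and 80.9%, and with 50% of a peak overlapped they were 35.7% and 71.7%. The window of 100 bp upstream to 300 bp downstream held 16.6% of WT and 22.8% of KO summits, and windows at the TSS of any transcript 31.9% and 42.1%. Under the summit rule, chosen after seeing the data, KO-only promoters made up 4.37%. Of 522 alternative values for gene lists 437 equalled the main count or stayed within 1.5 times of it, and 85 moved. Many of these counts are very small, so the tally is a weak check. The balance of WT-only against KO-only promoters turned in 4 of the 180 pairs of list and setting compared, in 4 of 30 lists. Replication-dependent histones went from 1 against 0 to 5 against 11 and T-box genes from 2 against 1 to 1 against 2 under the summit rule, and in the narrow window cytosolic ribosomal proteins went from 1 against 0 to 0 against 1 and spliceosome genes from 0 against 1 to 1 against 0. Causes of these shifts were not tested. Weak peaks limit the comparison, since a promoter below the calling threshold counts as without a peak and read depth is unknown.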
